A study of Mus musculus with 24 samples.

Results

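Mueller glia and reactive gliosis were followed through 10 genes in the retinas and lungs of neonatal mice: Gfap (ENSMUSG00000020932), Vim (ENSMUSG00000026728), Nes (ENSMUSG00000004891), Serpina3n (ENSMUSG00000021091), Lcn2 (ENSMUSG00000026822), Cp (ENSMUSG00000003617), Glul (ENSMUSG00000026473), Aqp4 (ENSMUSG00000024411), Kcnj10 (ENSMUSG00000044708) and Fgf2 (ENSMUSG00000037225). They were chosen by name, as genes that mark Mueller glia or that are known to change when glia react, and taken from the deposited tables by Ensembl identifier. All 10 were among the 36595 genes listed for the retina and the 36109 listed for the lung, and all 10 passed the filter on low counts in both tissues, in which 19173 retina genes and 16819 lung genes were tested.

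Whole-tissue RNA was sequenced from 12 retinas and 12 lungs, each tissue with 3 mice in each of 4 groups. WT mice and homozygous GSDMD-KO mice were C57/B6 littermates bred from heterozygous parents, and the knockout allele lacks 38 bases of exon 5 in Gsdmd, the gene of the pore-forming protein gasdermin D, in every cell. For the retina, WT-O2 and KO-O2 pups were kept in 75% oxygen from postnatal day 7 to 12 and then returned to room air, WT-RA and KO-RA pups stayed in room air, and all retinas were taken on day 18, a protocol of oxygen-induced retinopathy. For the lung, pups were kept in 85% oxygen or in room air (21% oxygen) from day 1 to 14 and collected on day 15. The counts assigned to genes were 24863257 to 29093035 per retina (median 27827879) and 28763661 to 29604254 per lung (median 29226529), and 1 CPM (counts per 1000000, on totals scaled by TMM factors) stood for 23.4 to 32.1 counts in a retina and 28.2 to 29.9 counts in a lung.

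Mueller glia are the radial glia of the retina. They span all its layers, supply neurons, take up and recycle glutamate through glutamine synthetase and carry potassium and water away through Kir4.1 and aquaporin-4. When the retina is injured or its blood supply fails, Mueller glia and the astrocytes on its inner surface become reactive: they make more of the intermediate filaments GFAP, vimentin and nestin and of secreted acute-phase proteins, and they can lose part of their homeostatic machinery. GFAP in particular is normally made by retinal astrocytes and little by resting Mueller glia, and its gene is a known target of STAT3, the transcription factor activated by cytokines of the IL-6 family.

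Promoter sequence was taken from RefSeq (GRCm38.p6), which held a window of 250 bases before to 50 bases after the start site for 9 of the 10 genes, Cp having 2 such windows. These windows were searched on both strands for 3 motifs: the STAT site TTCNNNGAA, the AP-1 site TGANTCA and the hypoxia response element core ACGTG. They occur in 8.30%, 7.81% and 19.6% of the 32851 mouse windows. The 5 genes below are those called higher after hyperoxia in retinas of both genotypes, shown from 250 bases before to 10 bases after the start, with motif matches in capitals.
Gfap, chr11:102897191-102897450, minus strand: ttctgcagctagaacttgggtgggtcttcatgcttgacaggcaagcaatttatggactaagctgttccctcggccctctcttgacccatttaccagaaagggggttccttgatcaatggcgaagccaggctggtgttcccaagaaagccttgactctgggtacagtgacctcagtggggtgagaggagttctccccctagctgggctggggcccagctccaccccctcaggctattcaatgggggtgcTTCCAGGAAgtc
Nes, chr3:87970843-87971102, plus strand: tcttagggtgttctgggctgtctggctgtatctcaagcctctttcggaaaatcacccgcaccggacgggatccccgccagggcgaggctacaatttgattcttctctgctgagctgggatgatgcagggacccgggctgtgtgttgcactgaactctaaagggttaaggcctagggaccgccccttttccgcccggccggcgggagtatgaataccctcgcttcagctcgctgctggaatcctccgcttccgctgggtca
Serpina3n, chr12:104406458-104406717, plus strand: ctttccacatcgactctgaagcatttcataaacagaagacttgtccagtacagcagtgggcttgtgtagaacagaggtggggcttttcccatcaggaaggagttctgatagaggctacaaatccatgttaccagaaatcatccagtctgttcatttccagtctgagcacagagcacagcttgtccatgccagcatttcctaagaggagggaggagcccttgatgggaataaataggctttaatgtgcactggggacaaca
Lcn2, chr2:32387730-32387989, minus strand: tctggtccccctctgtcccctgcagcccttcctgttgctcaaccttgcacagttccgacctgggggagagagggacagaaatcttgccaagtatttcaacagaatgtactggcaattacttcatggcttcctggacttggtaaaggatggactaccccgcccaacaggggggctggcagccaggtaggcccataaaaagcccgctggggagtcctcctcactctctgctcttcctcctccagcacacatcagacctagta
Fgf2, chr3:37348403-37348662, plus strand: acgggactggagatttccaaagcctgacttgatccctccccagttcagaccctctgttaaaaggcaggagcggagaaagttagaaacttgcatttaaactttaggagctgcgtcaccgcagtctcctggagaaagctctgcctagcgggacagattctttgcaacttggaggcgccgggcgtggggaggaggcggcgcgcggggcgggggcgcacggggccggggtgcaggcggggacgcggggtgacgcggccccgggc
In these 5 windows there was 1 match, the STAT motif TTCCAGGAA of Gfap, which lies across the start site, its first base being at position -2 and its length 9 bases. The windows of Nes, Serpina3n, Lcn2 and Fgf2 held none of the 3 motifs. Of the other windows, 1 of those of Cp held an AP-1 motif, TGATTCA, at position -177, and those of Vim, Glul and Kcnj10 held none. A match is a description of letters in the window and not evidence of binding, and distal elements were not searched.

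Gene symbols were matched through a GRCm38 annotation. The submitters' processing notes name mm10 and the study's methods a GRCm39 transcript set, so the coordinates above are those of the reference and not of the tables. Both Gsdmd and the cells in the tissue were checked before the results. In the lung Gsdmd was 40.6 to 42.3 CPM in WT-RA, 32.2 to 36.4 in WT-O2, 22.6 to 24.8 in KO-RA and 11.7 to 16.3 in KO-O2, so that the genotypes did not overlap. In the retina Gsdmd was 0.419 to 5.70 CPM in the 6 WT libraries and 0.636 to 2.95 in the 6 GSDMD-KO libraries, and the library labelled WT-RA 2 lay below every GSDMD-KO library. KO-O2 3 had the highest GSDMD-KO value, 2.95 CPM, above WT-RA 2, WT-RA 3 (2.70 CPM) and WT-O2 2 (2.90 CPM). The deletion removes a small piece of the transcript, and at these low retinal counts Gsdmd does not check the labels.

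All retinas carried rod markers (48500 to 72570 CPM summed over 5 genes), and all 20 genes of a Mueller glia identity list were above the filter. The tissue also differed in what else it held. Summed over 8 lens genes, 3 room-air retinas stood apart at 14850 CPM (WT-RA 2), 47260 CPM (WT-RA 3) and 22920 CPM (KO-RA 3), against 8.75 to 221 CPM in the other 9. The list of retinal pigment and ciliary epithelium reached 2006 CPM in KO-RA 3, against 138 to 648 elsewhere. Y-linked genes summed to 124 to 160 CPM in all 6 room-air retinas, but to 122 and 108 CPM in only WT-O2 1 and KO-O2 2 of the 6 hyperoxia retinas and to 2.15 to 3.64 CPM in the other 4, so exposure and sex overlap in the retina. The retina comparisons are therefore also given without the 3 lens-bearing libraries and with a term for sex, alternatives that were added after the data had been seen.

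Reactive gliosis genes were higher in WT retinas that had been through hyperoxia than in WT retinas kept in room air. In all, 5 of the 10 genes, namely Gfap, Nes, Serpina3n, Lcn2 and Fgf2, were called higher in WT-O2 than in WT-RA, by 2.65-fold (Lcn2) to 12.2-fold (Serpina3n), and none was called lower. A gene counted as called when it differed at least 2-fold with p under 0.05 and with a Benjamini-Hochberg adjusted p under 0.1 over all genes in edgeR's quasi-likelihood test. These 5 of 10 stand against 2.04% of all tested genes called in this comparison (1.77% of all tested genes called higher). At any fold change 8 of 10 passed the adjusted p, 6 higher and 2 lower, against 5.16% of all genes (3.11% higher and 2.05% lower), and the groups of 3 did not overlap for 8 of 10, against 24% of all genes. The median log2 fold change of the 10 genes was 1.16, and that of all tested genes was 0.000921.

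The filament gene Gfap was 12.2, 6.52 and 28.9 CPM in the WT-RA retinas and 82.0, 116 and 103 CPM in the WT-O2 retinas. Every WT-O2 retina was above every WT-RA retina, and the highest room-air value was that of WT-RA 3, the retina with the most lens RNA. Gfap rose by 2.66 on the log2 scale (SE 0.52, edgeR adjusted p 0.0318, n = 3 mice per group), from a mean ± SD of 15.9 ± 11.6 CPM to 100.2 ± 17.1 CPM.

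Nes, the gene of nestin, a filament protein of neural progenitors that reactive glia make again, was 2.40, 2.55 and 3.17 CPM in WT-RA and 10.9, 16.3 and 9.84 CPM in WT-O2. The WT-RA values lay close together and far below the WT-O2 values. Its log2 fold change was 2.19 (SE 0.25, edgeR adjusted p 0.00172), the smallest p among the 10 genes in this comparison. Nestin is also made by endothelial cells and pericytes, whose markers were higher in the same retinas (given below).

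Vim, the gene of vimentin, which resting Mueller glia already make, was 257, 210 and 454 CPM in WT-RA and 422, 486 and 564 CPM in WT-O2. The groups overlapped through WT-RA 3, and the difference did not pass the test (log2 fold change 0.68, SE 0.26, edgeR adjusted p 0.196). Lens fibre cells also make vimentin. Without WT-RA 3 the log2 fold change was 1.07 (adjusted p 0.0225), and without all 3 lens-bearing libraries it was 0.93 (adjusted p 0.108). It was 0.93 (adjusted p 0.0357) with library totals in place of TMM normalization and 0.67 (adjusted p 0.0732) in DESeq2.

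Among the secreted proteins, Serpina3n, the gene of a serine protease inhibitor that is a common marker of reactive astrocytes, was 2.40, 1.10 and 8.87 CPM in WT-RA and 22.7, 65.3 and 61.1 CPM in WT-O2. The groups did not overlap, but the values spread more than 2-fold within each group. Serpina3n rose by 3.60 on the log2 scale (SE 0.96, edgeR adjusted p 0.0913). Serpina3n belongs to a cluster of near-identical paralogs between which reads can be split, so its level is uncertain.

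Lcn2, the gene of lipocalin 2, which binds iron-carrying siderophores, was 9.64, 5.07 and 13.96 CPM in WT-RA and 17.8, 26.3 and 31.9 CPM in WT-O2. The lowest WT-O2 retina was close above the highest WT-RA retina, WT-RA 3. Lcn2 rose by 1.41 on the log2 scale (SE 0.36, edgeR adjusted p 0.0688). Neutrophils also make lipocalin 2, and the summed neutrophil list was 0.72 to 2.89 CPM in room-air retinas and 1.74 to 5.35 CPM in hyperoxia retinas.

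Cp, the gene of the copper-carrying ferroxidase ceruloplasmin, was 60.1, 66.3 and 116 CPM in WT-RA and 125, 169 and 164 CPM in WT-O2. The groups did not overlap, and Cp rose by less than the 2-fold threshold, with a log2 fold change of 0.92 (SE 0.23, edgeR adjusted p 0.0612). WT-RA 3 was again the highest of its group.

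Fgf2, the gene of basic fibroblast growth factor, which promotes survival of photoreceptors and other retinal neurons, was 5.24, 7.01 and 11.8 CPM in WT-RA and 33.2, 49.7 and 46.8 CPM in WT-O2. All WT-O2 values were well above the room-air range. Fgf2 rose by 2.43 on the log2 scale (SE 0.32, edgeR adjusted p 0.00321). Nudt6 overlaps Fgf2 on the opposite strand, and the sources used here do not say that strand was used in assigning reads.

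Of the 3 homeostatic genes of Mueller glia, Glul and Kcnj10 fell in WT-O2 retinas and Aqp4 did not pass the test. Glul, the gene of glutamine synthetase, was 2096, 1602 and 1484 CPM in WT-RA and 1240, 1013 and 1164 CPM in WT-O2, without overlap, with a log2 fold change of -0.60 (SE 0.14, edgeR adjusted p 0.0464). Kcnj10, the gene of Kir4.1, was 33.1, 35.8 and 28.4 CPM in WT-RA and 22.2, 16.5 and 19.5 CPM in WT-O2, also without overlap, with a log2 fold change of -0.74 (SE 0.15, edgeR adjusted p 0.0334). Both changed by less than 2-fold and were not called. Aqp4, the gene of aquaporin-4, was 40.3, 33.3 and 31.1 CPM in WT-RA and 26.7, 33.1 and 28.5 CPM in WT-O2, with overlap and a log2 fold change of -0.25 (SE 0.11, edgeR adjusted p 0.292). With library totals in place of TMM the difference of Glul was -0.37 (adjusted p 0.132), that of Kcnj10 was -0.51 (adjusted p 0.0991) and that of Aqp4 was -0.01 (adjusted p 0.981).

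**Figure D1:**
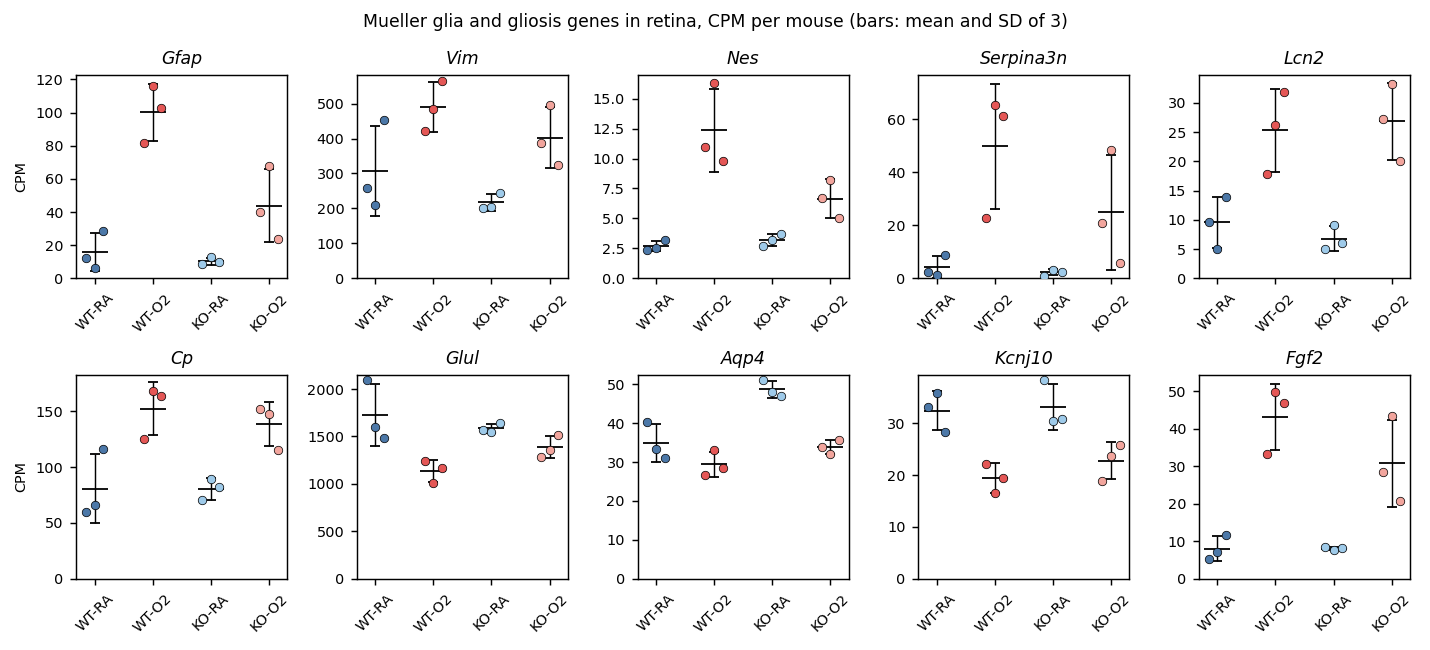
CPM (linear axis from 0) of each of the 10 genes in the 12 retinas, 3 mice in each of WT-RA, WT-O2, KO-RA and KO-O2, with the mean and SD of each group as bars. Gfap, Nes, Serpina3n, Lcn2 and Fgf2 lie higher in both hyperoxia groups than in the room-air group of the same genotype, and Kcnj10 lies lower.

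With single retinas left out the log2 fold changes in WT kept their sign, but the number of genes called fell from 5 to 2 without WT-RA 1 or WT-O2 2 and to 3 without WT-RA 2 or WT-O2 3, each leaving 2 mice in a group. The 2 genes were Nes and Fgf2 in both cases. Without WT-RA 3 it was 7, with Vim and Cp (1.27, adjusted p 0.00521) added. With library totals in place of TMM, Cp was called too, at 1.17 (adjusted p 0.0109). Nes and Fgf2 passed the adjusted p in all 13 alternatives, with the highest adjusted p at 0.0458 and 0.0426. Gfap passed in 11 of 13, missing it without WT-RA 1 (adjusted p 0.126) and without WT-O2 2 (0.104). Lcn2 passed in 6 of 13, missing it without WT-RA 1 (0.199), WT-RA 2 (0.164), WT-O2 2 (0.183) or WT-O2 3 (0.205). Serpina3n passed in 4 of 13 and missed it without WT-RA 1 (0.261), WT-RA 2 (0.225), WT-O2 1 (0.127), WT-O2 2 (0.227) or WT-O2 3 (0.207). Cp, Glul and Kcnj10 each passed in 7 of 13. Leaving out WT-RA 1, WT-RA 2, WT-O2 2 or WT-O2 3 raised the adjusted p of Cp to 0.199, 0.195, 0.19 and 0.173 and that of Kcnj10 to 0.103, 0.12, 0.127 and 0.101. Leaving out WT-RA 1, WT-O2 2 or WT-O2 3 raised that of Glul to 0.122, 0.171 and 0.128.

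The retinas of the hyperoxia groups also held more RNA of vessel and immune cells. The summed microglia list (8 genes) was 60.7 to 87.7 CPM in the 6 room-air retinas and 111.5 to 161 CPM in the 6 hyperoxia retinas. Endothelial genes summed to 80.0 to 108.5 and 126.8 to 174.4 CPM, and genes of pericytes and smooth muscle to 77.8 to 112.9 and 120.7 to 264.6 CPM. The summed retinal ganglion cell list was lower, 811 to 958 CPM against 1005 to 1444 CPM. Bipolar and amacrine genes were lower in WT, at 755 to 881 CPM in WT-O2 against 974 to 1146 CPM in WT-RA, and overlapped in GSDMD-KO. Rod genes were lower in GSDMD-KO, at 48500 to 55150 CPM in KO-O2 against 57570 to 64480 CPM in KO-RA, and overlapped in WT. The part of these cells in the differences of the 10 genes was not tested, and in whole retina more cells of a type and more RNA per cell cannot be told apart.

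Without the 3 lens-bearing retinas the log2 fold change in WT was 3.04 for Gfap (adjusted p 0.0711), 2.36 for Nes (0.0458) and 3.04 for Fgf2 (0.0426), which kept these genes called. Serpina3n (4.37, adjusted p 0.231) and Lcn2 (1.39, adjusted p 0.16) were no longer called, with 1 WT-RA mouse left, while Cp (1.34, adjusted p 0.0517) became called. Glul passed the adjusted p there at -0.88 (0.0438), and Kcnj10 (-0.77, adjusted p 0.122) and Aqp4 (-0.46, adjusted p 0.145) did not. With a term for sex Gfap (2.96, adjusted p 0.0835), Nes (2.28, adjusted p 0.00876) and Fgf2 (2.58, adjusted p 0.0186) were called, and Serpina3n (adjusted p 0.227) and Lcn2 (adjusted p 0.257) were not. None of Vim (0.75), Cp (0.82), Glul (-0.55), Aqp4 (-0.36) and Kcnj10 (-0.62) passed with that term (adjusted p 0.374, 0.262, 0.219, 0.303 and 0.192).

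**Figure D2:**
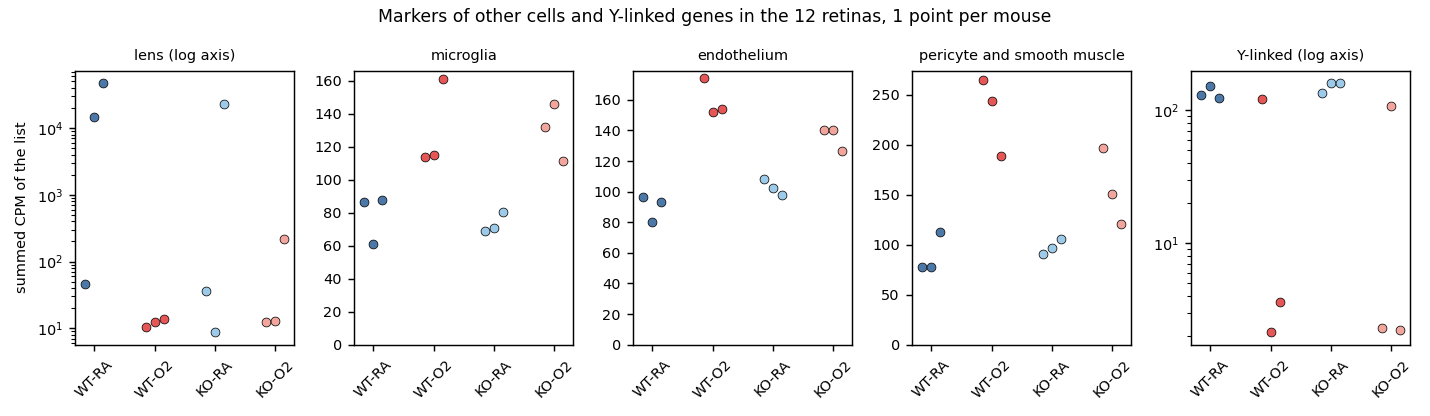
Summed CPM of marker lists in each of the 12 retinas (1 point per mouse), with lens and Y-linked genes on log axes. The 3 retinas with lens RNA (14850 to 47260 CPM) are all room-air retinas, the 6 hyperoxia retinas lie above the 6 room-air retinas for microglia, endothelium and pericyte lists, and Y-linked RNA is high in all 6 room-air retinas and in 2 hyperoxia retinas.

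GSDMD-KO retinas showed a similar set of calls after hyperoxia. The same 5 genes, Gfap, Nes, Serpina3n, Lcn2 and Fgf2, were called higher in KO-O2 than in KO-RA, against 2.19% of all tested genes called in this comparison (1.64% of all tested genes called higher). At any fold change 9 of 10 passed the adjusted p, 7 higher and 2 lower, against 7.82% of all genes (4.38% higher and 3.44% lower), and for all 10 genes the groups of 3 did not overlap, against 26.2% of all genes. The median log2 fold change was 0.97 over the 10 genes and 0.000736 over all tested genes.

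Gfap was 8.62, 12.8 and 9.73 CPM in KO-RA and 40.2, 67.7 and 23.9 CPM in KO-O2. KO-O2 3 was the lowest hyperoxia retina, near 2 times the highest KO-RA value. Gfap rose by 2.08 on the log2 scale (SE 0.52, edgeR adjusted p 0.0574).

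Nes was 2.74, 3.23 and 3.70 CPM in KO-RA and 6.70, 8.24 and 5.05 CPM in KO-O2, without overlap. Its log2 fold change was 1.05 (SE 0.24, edgeR adjusted p 0.0389), just above the 2-fold threshold. Vim was 201, 205 and 245 CPM in KO-RA and 388, 496 and 324 CPM in KO-O2, where no KO-RA retina stood out as WT-RA 3 did. The log2 fold change of Vim was 0.89 (SE 0.26, edgeR adjusted p 0.0802), under 2-fold.

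Serpina3n was 1.01, 3.33 and 2.42 CPM in KO-RA and 20.96, 48.4 and 5.63 CPM in KO-O2. KO-O2 3 was again low, less than 2 times the highest KO-RA value and below WT-RA 3 (8.87 CPM). The log2 fold change of Serpina3n was 3.47 (SE 0.98, edgeR adjusted p 0.0868). Lcn2 was 5.10, 9.18 and 6.12 CPM in KO-RA and 27.3, 33.2 and 20.1 CPM in KO-O2, with a log2 fold change of 1.98 (SE 0.37, edgeR adjusted p 0.018). Every KO-O2 retina was above every room-air retina of either genotype for Lcn2. Cp was 70.2, 89.7 and 82.4 CPM in KO-RA and 152, 148 and 116 CPM in KO-O2, with a log2 fold change of 0.78 (SE 0.23, edgeR adjusted p 0.0844).

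Fgf2 was 8.35, 7.70 and 8.06 CPM in KO-RA, the tightest of its groups, and 28.5, 43.4 and 20.6 CPM in KO-O2. Its log2 fold change was 1.94 (SE 0.31, edgeR adjusted p 0.0101), the smallest adjusted p of the 10 genes in GSDMD-KO.

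Of the homeostatic genes, Aqp4 fell in GSDMD-KO, from 51.2, 48.2 and 47.0 CPM in KO-RA to 33.8, 32.0 and 35.7 CPM in KO-O2, with a log2 fold change of -0.53 (SE 0.11, edgeR adjusted p 0.03). Kcnj10 fell from 38.3, 30.4 and 30.9 CPM to 19.0, 23.6 and 25.9 CPM, with a log2 fold change of -0.54 (SE 0.15, edgeR adjusted p 0.0778). Both changed by less than 2-fold. Glul was 1572, 1543 and 1642 CPM in KO-RA and 1288, 1360 and 1516 CPM in KO-O2, close together although the groups did not overlap, and its log2 fold change of -0.19 (SE 0.14, edgeR adjusted p 0.478) did not pass the test.

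In GSDMD-KO, Gfap (2.04, adjusted p 0.0855), Nes (1.16, adjusted p 0.0994), Lcn2 (1.91, adjusted p 0.0512) and Fgf2 (1.94, adjusted p 0.0397) were also called without the lens-bearing retinas, of which KO-RA 3 is the only GSDMD-KO library, and Serpina3n (3.52, adjusted p 0.207) was not. With a term for sex the same 4 genes were called (Gfap 2.28, Nes 1.13, Lcn2 1.94 and Fgf2 2.04, adjusted p 0.094, 0.0841, 0.0614 and 0.0291) and Serpina3n was not (adjusted p 0.134). Without the lens-bearing retinas Vim (0.99, adjusted p 0.0544), Cp (0.79, adjusted p 0.0855) and Aqp4 (-0.55, adjusted p 0.0678) passed under 2-fold, and Kcnj10 (-0.59, adjusted p 0.148) and Glul (-0.16, adjusted p 0.518) did not. With the sex term Aqp4 passed (-0.64, adjusted p 0.0526), and Vim (0.95), Cp (0.70), Kcnj10 (-0.41) and Glul (-0.14) did not (adjusted p 0.154, 0.235, 0.296 and 0.74).

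The number of genes called in GSDMD-KO fell from 5 to 2 without KO-RA 1 or KO-O2 2 and to 3 without KO-RA 2 or KO-RA 3. The 2 genes were Lcn2 and Fgf2 in both cases. Fgf2 and Lcn2 passed the adjusted p in all 13 alternatives (highest adjusted p 0.0476 and 0.083). Nes passed in 11, missing it without KO-RA 1 (0.133) and KO-O2 2 (0.163), and Aqp4 passed in 11, missing it without KO-RA 1 (0.103) and KO-O2 2 (0.132). Gfap passed in 9, missing it without KO-RA 1 (0.178), KO-RA 2 (0.112), KO-RA 3 (0.159) or KO-O2 2 (0.209). Vim passed in 6, missing it without KO-RA 1 (0.218), KO-RA 2 (0.182), KO-RA 3 (0.133), KO-O2 1 (0.112) or KO-O2 2 (0.282). Serpina3n passed in 3 and missed it without KO-RA 1 (0.238), KO-RA 2 (0.16), KO-RA 3 (0.207), KO-O2 1 (0.111) or KO-O2 2 (0.276). Cp passed in 5 and missed it without any 1 of the 6 mice (adjusted p 0.103 to 0.251), and Kcnj10 passed in 3 and missed it without KO-RA 1 (0.239), KO-RA 2 (0.109), KO-RA 3 (0.125), KO-O2 1 (0.158) or KO-O2 2 (0.202).

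**Figure D3:**
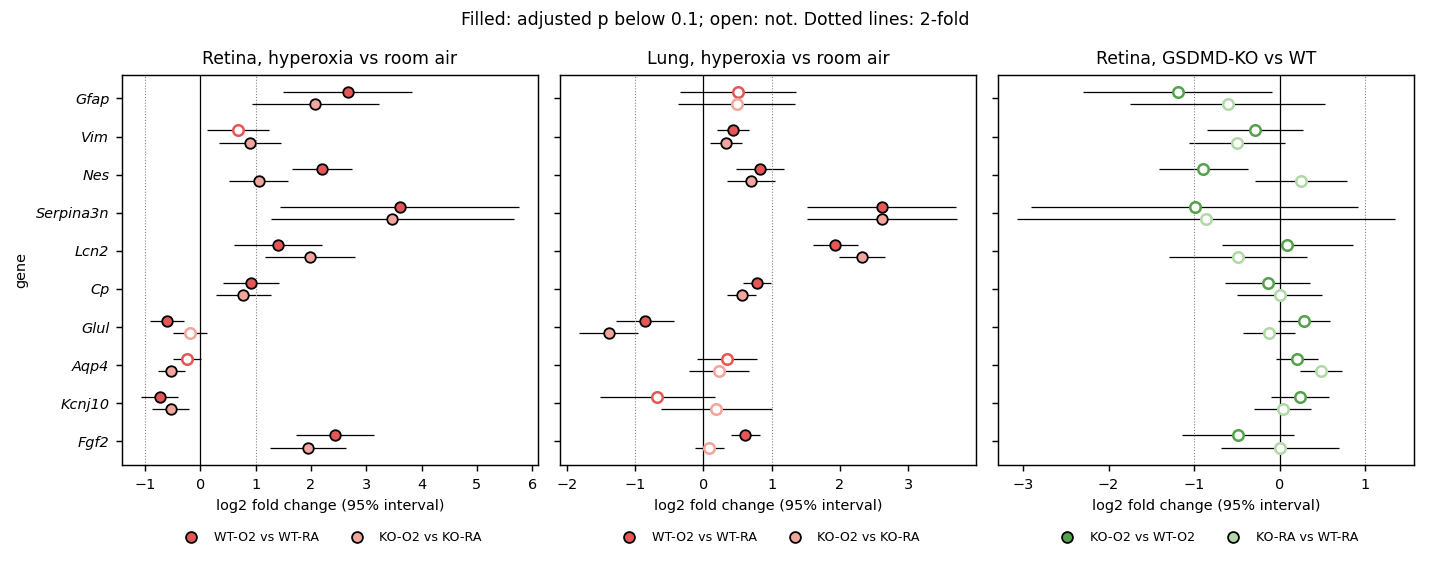
Log2 fold change with the 95% interval of the quasi-likelihood test (x axis) of each of the 10 genes (y axis) in retina and lung after hyperoxia, and in retina between genotypes, with filled points at an adjusted p below 0.1. In the retina 8 genes in WT and 9 in GSDMD-KO are filled, and no gene is filled between genotypes.

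Between the genotypes no gene of the 10 was called. In hyperoxia retinas (KO-O2 against WT-O2) the count was 0 of 10, against 0.292% of all tested genes. DESeq2 called 0 of 10 too, and 2 of the 10, Gfap and Nes, had an unadjusted p under 0.05 in edgeR, against 12.6% of all genes. DESeq2 passed Nes alone at an adjusted p of 0.03, below the 2-fold threshold. Gfap had a mean ± SD of 100.2 ± 17.1 CPM in WT-O2 and 43.9 ± 22.2 CPM in KO-O2, and every KO-O2 retina was below every WT-O2 retina. Its log2 difference was -1.19 (SE 0.50, p 0.0371, edgeR adjusted p 0.356, 0.242 to 0.647 over the alternatives). Nes had 12.4 ± 3.5 CPM in WT-O2 and 6.66 ± 1.59 CPM in KO-O2, also without overlap, with a log2 difference of -0.89 (SE 0.24, p 0.00291, edgeR adjusted p 0.137, 0.03 to 0.363 over the alternatives). Glul was higher in every KO-O2 retina (1288 to 1516 CPM) than in every WT-O2 retina (1013 to 1240 CPM), with a log2 difference of 0.29 (SE 0.14, edgeR adjusted p 0.43). For these 3 of 10 the groups did not overlap, against 19.9% of all genes. Vessel markers differed between the same retinas: the summed endothelial list was 152 to 174.4 CPM in WT-O2 and 126.8 to 140.5 CPM in KO-O2, without overlap, and the list of pericytes and smooth muscle was 189 to 264.6 CPM (median 243.4) and 120.7 to 196.5 CPM (median 150.5). Microglia lists overlapped, at 113.4 to 161 and 111.5 to 145.6 CPM. The part of these cells in the differences of Gfap and Nes was not tested. Without the lens-bearing retinas the difference was -1.19 for Gfap (adjusted p 0.261) and -0.89 for Nes (adjusted p 0.216), with a sex term -1.28 (adjusted p 0.374) and -0.91 (adjusted p 0.173), and 0 of the 10 genes were called in either.

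The other 7 genes overlapped between WT-O2 and KO-O2. Vim, Cp, Aqp4 and Kcnj10 differed by -0.29, -0.14, 0.20 and 0.23 on the log2 scale (adjusted p 0.512 to 0.886). Lcn2 was nearly level, with a log2 difference of 0.09 and a 95% interval of -0.68 to 0.85. Fgf2 had a difference of -0.49 (interval -1.14 to 0.17), and Serpina3n, which varied most, one of -0.99 (interval -2.90 to 0.92). The last 2 intervals reach past a 2-fold lower level in KO-O2, so 3 mice per group do not settle whether the genotypes differ in Fgf2 and Serpina3n.

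In room air (KO-RA against WT-RA) 0 of 10 genes were called, against 0.00522% of all tested genes, which is a single gene, and DESeq2 called 0 of 10 as well. Aqp4 was the only one of the 10 with an unadjusted p under 0.05 in edgeR, against 12.7% of all genes. Its values were 47.0 to 51.2 CPM in KO-RA and 31.1 to 40.3 CPM in WT-RA, without overlap, which held for 17.7% of all genes, with a log2 difference of 0.48 (SE 0.11, p 0.00128, edgeR adjusted p 0.238). The differences of the other 9 genes in room air, which all overlapped, lay between -0.86 (Serpina3n) and 0.25 (Nes), with adjusted p from 0.442. The adjusted p of Aqp4 was 0.0154 in DESeq2 and 0.0846 with library totals, and 0.484 (difference 0.29) without the lens-bearing retinas, 0.277 with a sex term.

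The test of the difference itself, the interaction of genotype and hyperoxia, passed for 0 of 10 genes in the retina, against 0.00522% of all genes. Nes had the smallest p: its response was lower in GSDMD-KO than in WT by 1.14 on the log2 scale (difference -1.14, SE 0.34, p 0.00611, edgeR adjusted p 0.281, 0.134 to 0.498 over the alternatives), and it was the only one of the 10 under an unadjusted p of 0.05, against 10.6% of all genes. DESeq2 passed none of the 10. The interval of the difference was -2.16 to 0.99 for Gfap, -0.54 to 1.68 for Lcn2 and -0.02 to 0.84 for Glul (edgeR adjusted p 0.809, 0.712 and 0.493). Without the lens-bearing retinas the interaction of Nes was -1.20 (adjusted p 0.374), and with a sex term its adjusted p was 0.313. The 2 hyperoxia comparisons share no mice, but each shares a group with the comparison between genotypes.

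Across the 12 retinas the correlation of log2 CPM was 0.98 between Gfap and Serpina3n, 0.94 between Gfap and Vim and 0.91 between Gfap and Lcn2, and with the group means removed it was 0.94, 0.90 and 0.89. Other pairs among the gliosis genes were looser within groups, 0.64 for Gfap and Nes, 0.58 for Lcn2 and Fgf2, 0.53 for Vim and Nes and 0.42 for Nes and Lcn2, the lowest of these pairs. Among the homeostatic genes, Kcnj10 and Glul correlated at 0.55 within groups, Glul and Aqp4 at 0.36 and Aqp4 and Kcnj10 at -0.03. Kcnj10 and Serpina3n correlated at -0.71. WT-RA 3 was highest of its group for Gfap, Vim, Nes, Serpina3n, Lcn2, Cp and Fgf2, and KO-O2 3 was lowest of its group for the same 7 genes. The 12 points share the exposures, and WT-RA 3 also carried lens RNA, so the correlations are descriptions.

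The genes whose pattern over the 12 retinas was most like that of Gfap, among the 15661 genes whose mean reached 1 CPM, were Edn2 (Pearson r 0.986), Serpina3n (0.980), Arpc1b (0.978), Tagln2 (0.974) and Myl12a (0.973). Edn2 encodes endothelin 2, and Arpc1b, Tagln2 and Myl12a encode proteins of the actin cytoskeleton. The 5 most like Glul were Gpr85 (0.979), Rd3l (0.971), Car2 (0.961), Chst10 (0.958) and Gsg1 (0.957), of which Car2, carbonic anhydrase 2, is itself a Mueller glia enzyme.

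Other genes of Mueller glia and astrocytes were read from lists of known function. Of the 20 genes of Mueller glia identity 0 were called in either genotype, while 11 in WT and 3 in GSDMD-KO had an unadjusted p under 0.05 in edgeR, a threshold that 17.4% of all genes passed in WT and 20.3% in GSDMD-KO. At any fold 3 passed the adjusted p upward and 4 downward in WT, and 1 upward and 2 downward in GSDMD-KO, with median log2 fold changes of -0.16 and -0.06. Of all tested genes 3.11% passed upward and 2.05% downward in WT, and 4.38% and 3.44% in GSDMD-KO. Cav1, the gene of the membrane scaffold caveolin-1, which endothelium also makes, was 50.8, 45.3 and 42.4 CPM in WT-RA and 69.7, 85.3 and 74.2 CPM in WT-O2, without overlap (log2 fold change 0.73, SE 0.11, edgeR adjusted p 0.006). In GSDMD-KO it was 45.7, 51.2 and 54.3 CPM in room air and 45.4, 46.0 and 41.6 CPM in hyperoxia (log2 fold change -0.19, adjusted p 0.36). The interaction for Cav1 was -0.91 (SE 0.15, p 7.07e-05, edgeR adjusted p 0.123). Dkk3, a secreted Wnt modulator, fell in WT (-0.43, adjusted p 0.0396) and was level in GSDMD-KO (0.03, adjusted p 0.922), with an interaction adjusted p of 0.279. Cd9, the gene of a tetraspanin, rose in both (0.68, adjusted p 0.0427, and 0.60, adjusted p 0.0535), and Spon1 fell in WT (-0.42, adjusted p 0.0258).

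Of 8 genes of retinal astrocytes 0 were called in WT (4 at an unadjusted p under 0.05 in edgeR) and 1, Aldh1l1, a folate enzyme used as an astrocyte marker, in GSDMD-KO (log2 fold change 1.11, SE 0.23, edgeR adjusted p 0.0252). It was 0.51 in WT (adjusted p 0.273) and its interaction was 0.60 (adjusted p 0.542). Fgfr3 had the largest difference of this list in WT, -3.33 (SE 1.04), and did not pass (adjusted p 0.13). It was 3.24 and 13.2 CPM in the lens-bearing WT-RA 2 and WT-RA 3. In WT-RA 1 it was 0.440 CPM, within the WT-O2 range of 0.281 to 0.962 CPM. In GSDMD-KO its highest value was also in the lens-bearing library, KO-RA 3 (4.97 CPM). The shares of all tested genes called higher were 1.77% in WT and 1.64% in GSDMD-KO, and 17.4% in WT had an unadjusted p under 0.05 in edgeR.

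Genes of reactive astrocytes were read from 3 lists. In WT 1 of 8 pan-reactive genes, 2 of 11 genes of the A1 type and 3 of 11 tested genes of the A2 type were called higher, and 0 were called lower, against 1.77% of all genes called higher, with medians of 1.44, 0.60 and 0.50. In GSDMD-KO the counts were 1 of 8, 2 of 11 and 1 of 11, against 1.64% of all genes, with medians of 0.87, 0.16 and 0.16. Timp1, the gene of an inhibitor of matrix metalloproteinases, was 0.960, 2.21 and 1.84 CPM in WT-RA and 5.23, 17.8 and 10.6 CPM in WT-O2, and 0.710, 1.41 and 1.51 CPM in KO-RA and 4.03, 5.03 and 3.77 CPM in KO-O2. Neither pair of groups overlapped, and its log2 fold change was 2.74 (edgeR adjusted p 0.012) in WT and 1.82 (adjusted p 0.0491) in GSDMD-KO. Cd109, which encodes a surface co-receptor of TGF-beta, was called in both (2.75, adjusted p 0.0133, and 2.60, adjusted p 0.015), and so was Serping1, the gene of the C1 inhibitor of complement (1.39, adjusted p 0.0882, and 1.71, adjusted p 0.0392). Tm4sf1 and Emp1, which encode membrane proteins, were called in WT (1.34 and 2.43, adjusted p 0.0265 and 0.039) and not in GSDMD-KO (0.77 and 1.30, adjusted p 0.131 and 0.182), with interaction adjusted p of 0.611 and 0.603. These lists were defined in brain astrocytes, and several of their genes are also made by vessels and immune cells.

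Genes of the signaling pathway known to act on Gfap were among the calls, and their part in the differences of Gfap was not tested. Of 16 tested genes of gp130 and STAT3 signaling, the pathway of the IL-6 family, 4 were called higher in WT and 3 in GSDMD-KO, 0 lower, with medians of 0.51 and 0.12. Of all tested genes 1.77% were called higher in WT and 1.64% in GSDMD-KO. Stat3 itself was 39.0, 38.4 and 43.5 CPM in WT-RA and 68.9, 137 and 71.6 CPM in WT-O2, and 34.1, 34.2 and 31.9 CPM in KO-RA and 60.1, 79.4 and 50.8 CPM in KO-O2. All hyperoxia values were above all room-air values, and the log2 fold change was 1.20 in WT (SE 0.24, edgeR adjusted p 0.028) and 0.92 in GSDMD-KO (SE 0.24, adjusted p 0.0595), the latter under 2-fold. Its targets Bcl3 (3.42, adjusted p 0.0173, and 2.42, adjusted p 0.051), Cebpd (2.23, adjusted p 0.00753, and 1.35, adjusted p 0.0495) and Junb (1.56, adjusted p 0.0186, and 1.25, adjusted p 0.0378) were called in WT and GSDMD-KO. Between KO-O2 and WT-O2 0 of the 16 were called, and 3 had a difference above 0, with a median of -0.35. In that comparison 4 of the 16 had an unadjusted p under 0.05 in edgeR, against 12.6% of all genes.

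Endothelin signaling held 3 calls of 7 in WT and 2 of 7 in GSDMD-KO, all higher, with medians of 0.81 and 0.54. The shares of all tested genes called higher were 1.77% and 1.64%. Between KO-O2 and WT-O2 0 of the 7 were called, and 2 had a difference above 0, with a median of -0.10. In that comparison 1 of the 7 had an unadjusted p under 0.05 in edgeR, against 12.6% of all genes. Edn2, made by injured photoreceptors and read by the endothelin receptors of glia, was 0.440, 0 and 2.91 CPM in WT-RA and 32.9, 27.8 and 49.5 CPM in WT-O2, and 0.135, 0.505 and 0.238 CPM in KO-RA and 11.3, 26.4 and 3.16 CPM in KO-O2. Its highest room-air value was that of WT-RA 3 and its lowest hyperoxia value that of KO-O2 3, the same 2 mice as for Gfap. The log2 fold change was 5.07 (SE 1.11, edgeR adjusted p 0.0491) in WT and 5.51 (SE 1.24, adjusted p 0.0441) in GSDMD-KO. Ednra, a receptor, was called in both (1.52 and 1.29, adjusted p 0.0166 and 0.0282), and Edn1 was called in WT (1.03, adjusted p 0.0416) and rose by just under 2-fold in GSDMD-KO (0.98, adjusted p 0.0407). Ednrb, the other receptor, was called in neither genotype. It was 2.21 to 3.98 CPM in WT-RA and 3.73 to 6.74 CPM in WT-O2, and 3.01 to 4.04 CPM in KO-RA and 2.97 to 3.78 CPM in KO-O2.

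**Figure D4:**
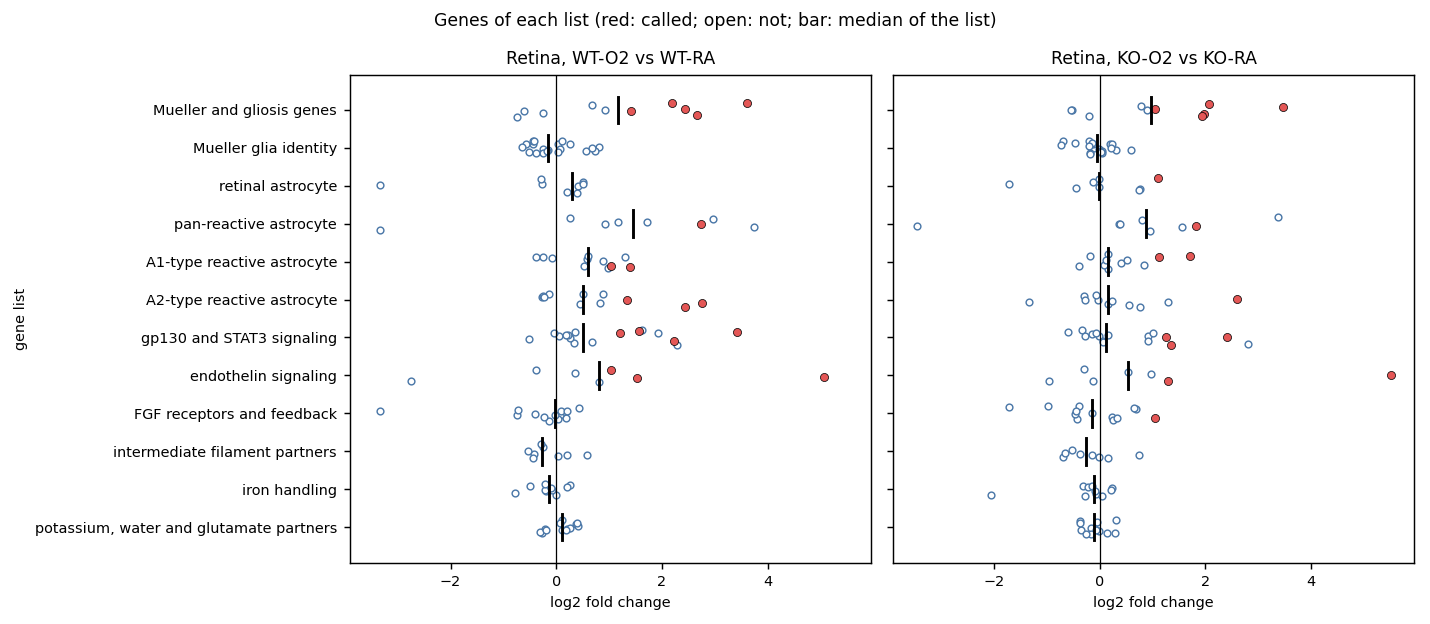
Log2 fold change of hyperoxia against room air in the retina (x axis) for the genes of each list (y axis), in WT and in GSDMD-KO, with called genes filled in red and the median of each list as a bar. The medians of the pan-reactive list (1.44 and 0.87) and of the 10 Mueller and gliosis genes (1.16 and 0.97) are the farthest to the right, and the lists of Mueller glia identity, iron handling and potassium, water and glutamate partners lie about 0.

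Partners of the 10 genes held few calls, where 1.77% of all tested genes were called higher in WT and 1.64% in GSDMD-KO. An unadjusted p under 0.05 in edgeR was reached by 17.4% of all genes in WT and by 20.3% in GSDMD-KO. Of 13 FGF receptors and feedback genes 0 were called in WT, with 2 at an unadjusted p under 0.05 in edgeR. In GSDMD-KO 5 had such a p, and 3 passed the adjusted p at any fold, all upward, against 4.38% of all genes upward. The 1 called in GSDMD-KO was Etv4, an ETS factor induced by FGF signaling (log2 fold change 1.04, edgeR adjusted p 0.0394). In WT it was -0.24 (adjusted p 0.67), and its interaction was 1.28 (adjusted p 0.233). Of 8 partners of intermediate filaments 0 were called, with 5 at an unadjusted p under 0.05 in each genotype in edgeR. At any fold 0 of the 8 passed the adjusted p upward and 1 downward in WT, and 1 upward and 3 downward in GSDMD-KO. Neuronal filament genes passed downward under 2-fold: Nefl in both genotypes (-0.53, adjusted p 0.0835, and -0.66, adjusted p 0.0318), and Nefm in GSDMD-KO (-0.69, adjusted p 0.0193) but not in WT (-0.43, adjusted p 0.125). Lmna, of the same list, was higher without overlap, at 7.89 to 13.1 CPM in WT-RA and 15.1 to 18.8 CPM in WT-O2. In GSDMD-KO Lmna was 7.75 to 12.6 CPM in KO-RA and 14.2 to 17.2 CPM in KO-O2. Of 10 tested genes of iron handling, the pathway of Cp and Lcn2, and of 13 partners of Kir4.1, aquaporin-4 and glutamine synthetase, 0 passed the adjusted p at any fold in either genotype. At an unadjusted p under 0.05 in edgeR there were 1 and 4 in WT and 0 and 3 in GSDMD-KO. Their medians were -0.15 and 0.11 in WT and -0.11 and -0.10 in GSDMD-KO.

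In the lung, a tissue without Mueller glia, Gfap and Kcnj10 were near the limit of detection. Gfap ran from 0.237 to 0.803 CPM (7 to 24 counts), with log2 fold changes of 0.51 in WT and 0.49 in GSDMD-KO (edgeR adjusted p 0.322 and 0.359), and Kcnj10 from 0.270 to 0.768 CPM (8 to 22 counts), with log2 fold changes of -0.67 and 0.19 (adjusted p 0.187 and 0.722), over the 12 lungs. Aqp4, which lung epithelium makes, was 7.71 to 15.7 CPM, and its exposures overlapped in both genotypes (0.34 and 0.23, adjusted p 0.201 and 0.41). The secreted genes were well expressed and rose after hyperoxia. In WT lungs 2 of 10 genes, Serpina3n and Lcn2, were called, both higher, against 11.6% of all tested lung genes and 5.04% in that direction. At any fold 7 of 10 passed, 6 higher and 1 lower, against 49.2% (24.5% higher and 24.7% lower). In GSDMD-KO lungs 3 of 10, Serpina3n, Lcn2 and Glul, were called, 2 higher and 1 lower, against 10.6% (4.57% higher and 6.03% lower). At any fold 6 of 10 passed, 5 higher and 1 lower, against 46.7% (23.3% higher and 23.4% lower). The median log2 fold change of the 10 genes was 0.56 in WT and 0.41 in GSDMD-KO, and that of all genes was -0.00694 and -0.0127.

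Lcn2 was 145, 169 and 142 CPM in WT-RA lungs and 510, 608 and 622 CPM in WT-O2 lungs, and 109, 115.5 and 89.6 CPM in KO-RA and 402, 634 and 536 CPM in KO-O2. All hyperoxia lungs were above all room-air lungs. The log2 fold change was 1.93 (SE 0.15, edgeR adjusted p 4.76e-07) in WT and 2.32 (SE 0.16, adjusted p 1.48e-07) in GSDMD-KO.

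Serpina3n was 96.4, 76.9 and 21.3 CPM in WT-RA and 336, 392 and 459 CPM in WT-O2, and 28.5, 40.8 and 41.5 CPM in KO-RA and 175, 244 and 262 CPM in KO-O2. Here too the exposures did not overlap, and all KO-O2 lungs were below all WT-O2 lungs. The log2 fold change was 2.61 (SE 0.48, edgeR adjusted p 0.0024) in WT and 2.62 (SE 0.48, adjusted p 0.00263) in GSDMD-KO, and the difference between KO-O2 and WT-O2 was -0.80 (SE 0.45, adjusted p 0.863). Liver genes summed to 163 CPM in KO-O2 1 and to 1.69 to 6.55 CPM in the other 11 lungs, and KO-O2 1 had the lowest Lcn2, Serpina3n and Cp of its group.

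Glul fell in both genotypes in the lung, from 504, 364 and 329 CPM in WT-RA to 241, 229 and 191 CPM in WT-O2 (log2 fold change -0.86, SE 0.20, edgeR adjusted p 0.00421), and from 346, 534 and 530 CPM in KO-RA to 161, 214 and 164 CPM in KO-O2 (log2 fold change -1.39, SE 0.20, adjusted p 0.000179). The values of the 2 exposures did not overlap in either genotype. The interaction for Glul was -0.53 (SE 0.28, adjusted p 0.795).

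The filament genes Vim (0.44 and 0.33) and Nes (0.83 and 0.70) and the ferroxidase gene Cp (0.79 and 0.56) rose in WT and GSDMD-KO lungs by less than 2-fold, with edgeR adjusted p of 0.00491 and 0.0269 for Vim, 0.00111 and 0.00377 for Nes and 2.04e-05 and 0.000407 for Cp. In the lung these filaments belong to mesenchyme and vessels. The adjusted p of Vim in GSDMD-KO was 0.12 without KO-RA 3 and 0.115 without KO-O2 1.

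Fgf2 in the lung was 35.7, 36.4 and 34.4 CPM in WT-RA and 56.7, 51.8 and 54.4 CPM in WT-O2, and it rose by 0.61 on the log2 scale (SE 0.10, edgeR adjusted p 0.00019). In GSDMD-KO it was 37.2, 43.1 and 49.4 CPM in room air and 50.3, 44.8 and 43.0 CPM in hyperoxia, which overlapped (0.09, SE 0.10, adjusted p 0.5). The interaction was -0.52 (SE 0.14, p 0.00196) and did not pass in edgeR (adjusted p 0.42), but passed in DESeq2 (adjusted p 0.0854). Y-linked genes summed to 2.99 to 3.72 CPM in WT-RA lungs and 2.15 to 138.6 CPM (median 2.65) in WT-O2 lungs. In GSDMD-KO they summed to 3.28 to 154.1 CPM (median 108.1) in KO-RA and 128.9 to 163.7 CPM in KO-O2. Sex and genotype therefore overlap in the lung. Of the 10 genes 0 were called between genotypes in the lung, against 0.0238% of all genes in hyperoxia and 0.137% in room air, and 0 passed the interaction, against 0.00595%. DESeq2 called 0 between genotypes as well and passed 1, Fgf2, for the interaction, where Fgf2 was also the only one of the 10 at an unadjusted p under 0.05 in edgeR, against 6.72% of all genes. Fgf2 and Cp had an unadjusted p under 0.05 in edgeR in hyperoxia lungs and Lcn2 and Fgf2 in room-air lungs, against 6.21% and 10.5% of all genes. When WT-RA 3, the room-air lung with the least Serpina3n, was left out, 1 gene was called in room air, Serpina3n, at -1.23 (adjusted p 0.0231), where with all lungs it was -0.81 (adjusted p 0.61).

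**Figure D5:**
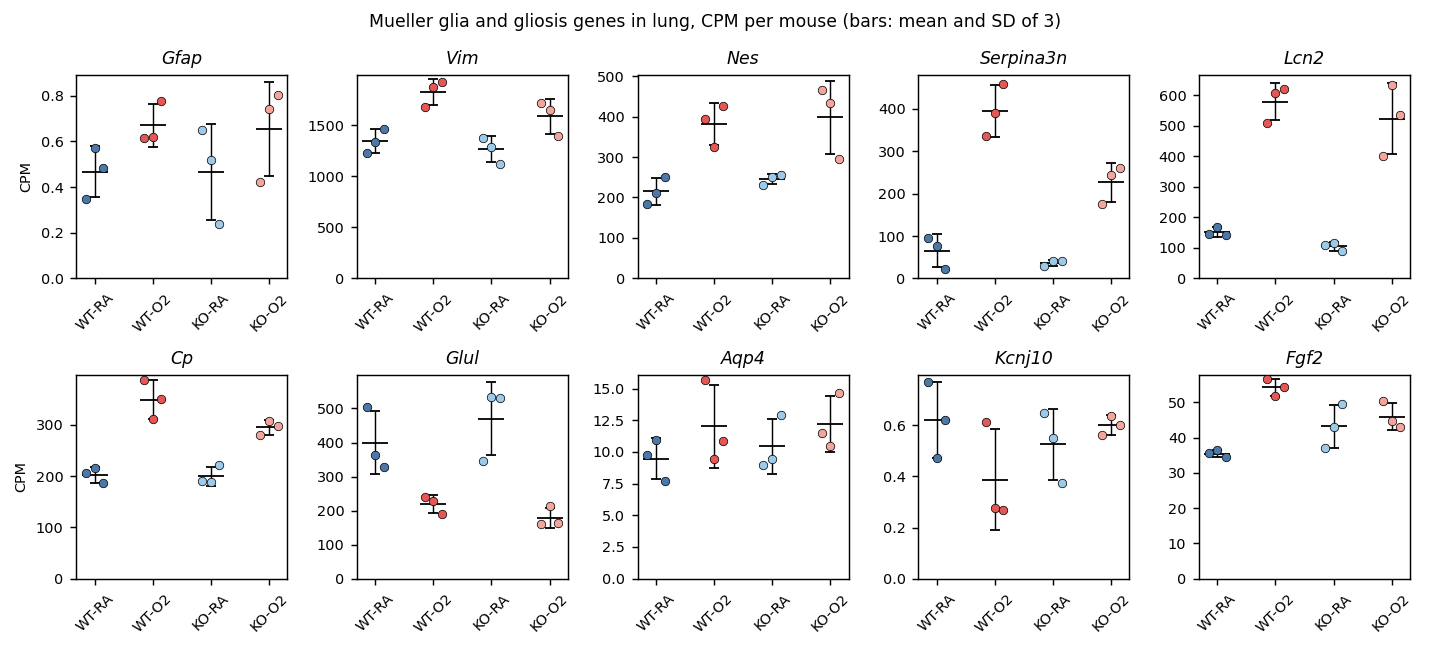
CPM (linear axis from 0) of each of the 10 genes in the 12 lungs, 3 mice in each of WT-RA, WT-O2, KO-RA and KO-O2, with the mean and SD of each group as bars. Serpina3n and Lcn2 are higher and Glul lower in both hyperoxia groups, and Gfap and Kcnj10 stay under 1 CPM in all lungs.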

How the data were processed

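RNA was extracted from whole lungs and retinas, and libraries were prepared and sequenced by BGI. Per the labels and the study's methods, the authors quantified reads with kallisto and summed transcripts to genes. The deposited values are the authors' estimated counts per gene, 1 table per tissue, and were taken as not normalized. The tables differed in form. Of the nonzero entries, 55.8% for lung but 2.2% for retina lay within 0.01 of an integer. Whether the tables had been scaled alike was not tested, so CPM levels of retina and lung may not share a scale. Strand use and gene-level filters were not given in the sources used here. The counts were rounded to whole numbers, filtered with filterByExpr and normalized by TMM within each tissue. The tables were fitted separately, with genotype and exposure combined into 4 groups and all 12 libraries of a tissue in 1 fit, in edgeR 4.0.16 (quasi-likelihood test, R 4.3.3), with Benjamini-Hochberg adjustment over all genes tested. Intervals used the t quantile of each gene's degrees of freedom in that test. CPM used TMM-adjusted totals. A change was called at adjusted p under 0.1, p under 0.05 and at least 2-fold, and an interaction at adjusted p under 0.1. Replicates were separate mice.

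The fit was checked on simulated counts with the same spread for every gene. That check does not cover genes as variable as Gfap and Serpina3n in the retina. DESeq2 1.42.0, RLE factors, library totals, no filter, 2 groups alone, other fold thresholds and each mouse left out were alternatives. The 10 genes and the lists were chosen with earlier results of these data known. Named were the 10 genes, Gsdmd, at most 4 genes of each list by the smallest p in WT-O2 against WT-RA or in the interaction, and the 5 genes most like Gfap and like Glul by Pearson correlation of log2 CPM (prior count 2). Some genes stand on more than 1 list.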

Additional observations from a re-analysis of the deposited data

Results flagged for a closer look

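In GSDMD-KO mice every retina of the hyperoxia group had more Gsdmd than every room-air retina, and every hyperoxia lung had less than every room-air lung. In the retina the log2 fold change, KO-O2 against KO-RA, was 1.20, which did not pass the test (edgeR adjusted p 0.333), at 0.636 to 0.980 CPM in KO-RA and 1.11 to 2.95 CPM in KO-O2. In the lung it was -0.81 (edgeR adjusted p 4.5e-05), at 22.6 to 24.8 CPM and 11.7 to 16.3 CPM. WT mice had the same signs, 0.79 in the retina (adjusted p 0.571, groups overlapping) and -0.27 in the lung (adjusted p 0.0533). The WT lung difference thus passed the adjusted p under 2-fold, and its groups did not overlap (40.6 to 42.3 CPM in WT-RA, 32.2 to 36.4 CPM in WT-O2). By qRT-PCR the study instead reports more Gsdmd in WT lungs after hyperoxia, and hardly any in GSDMD-KO lungs. The difference between the tissues was not tested. Retinas and lungs differ in age, oxygen level and recovery in room air.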

How the results depend on the processing

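No paired analysis was possible because the labels name single mice and give no replicate numbers shared between groups. Results for single genes were compared over the alternatives by direction and by the adjusted p of 0.1 alone, without the fold threshold of a call. In the retina they kept direction and side of that adjusted p 488 times. They no longer passed it 79 times, newly passed it 6 times and reversed direction 10 times. In the lung the counts were 181, 2, 1 and 1. The number of the 10 genes called in the retina was 8 in WT with no fold threshold, 8 at 1.5-fold, 3 with only the 2 groups compared and 3 with a term for sex, and 2 to 7 with 1 mouse left out. In GSDMD-KO it was 9 with no fold threshold and 2 to 6 with 1 mouse left out. In the lung it was 7 in WT with no fold threshold and 6 at 1.5-fold, 6 in GSDMD-KO with no fold threshold, 1 for the interaction in DESeq2, and 0 to 1 for KO-RA against WT-RA with 1 mouse left out. Reversals came only from leaving out 1 mouse, for differences that were not called: the interaction in the retina ranged from -1.36 to 0.34 for Serpina3n, from -0.49 to 0.035 for Cp and from -0.18 to 0.43 for Vim, the KO-O2 against WT-O2 difference of Lcn2 from -0.11 to 0.27 (-0.09 without KO-O2 2), and the lung KO-O2 against KO-RA difference of Fgf2 from -0.0087 to 0.19. For Serpina3n the reversed values were 0.14 without WT-RA 1, 0.32 without WT-RA 2, 0.11 without WT-O2 2, 0.03 without WT-O2 3, 0.27 without KO-RA 2 and 0.34 without KO-O2 3.

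Over all retina genes, DESeq2 called 635 in WT, 658 in GSDMD-KO, 164 for KO-O2 against WT-O2, 63 for KO-RA against WT-RA and 547 for the interaction, where edgeR called 391, 420, 56, 1 and 1. In the lung, DESeq2 called 32 and edgeR 4 for KO-O2 against WT-O2, 70 and 23 for KO-RA against WT-RA, and 110 and 1 for the interaction. With library totals 777 retina genes were called in WT and 43 for KO-RA against WT-RA. At 1.5-fold 707, 879 and 156 retina genes and, in the lung, 3923 in WT, 3595 in GSDMD-KO and 50 for KO-RA against WT-RA were called. With no fold threshold there were 990, 1500 and 244 in the retina and 8268, 7857, 82 and, for KO-O2 against WT-O2, 7 in the lung. The causes of these differences were not tested. With 3 mice in a group, the lens RNA and the overlap of sex with exposure limit the retina results. The overlap of sex with genotype limits the lung comparisons between genotypes. In room-air retinas Gsdmd, Serpina3n, Nes and Edn2 rest on few counts.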
